A study of Homo sapiens with 14 samples.

Results

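The GATA and FOXA pioneer factors were followed in RNA sequencing libraries made along the path from a human embryonic stem cell line to pancreatic β-like cells. The 8 genes were GATA2, GATA3, GATA4, GATA6, the long non-coding RNA GATA6-AS1, FOXA1, FOXA2 and FOXA3. They were chosen by name from the 60624 Ensembl genes listed in every library, not by a threshold on their levels. Earlier results of these data were known when they were chosen. All 14 libraries came from MEL1, a human embryonic stem cell line that in the study's methods carries a GFP reporter at the insulin gene. There were 9 groups. hPSC (undifferentiated cells, grown on mouse feeder cells), DE (definitive endoderm), PP2 (pancreatic progenitors reached step by step) and SC-β (β-like cells at the end of the same path) had 1 library each, in batch 1. ePP-P9 and ePP-P21 were progenitors made to expand in culture (ePPs), taken at passage 9 and passage 21, and ePP-β were β-like cells made from ePPs. These 3 groups had 2 libraries each, in batch 2. ePPs were grown on feeder cells in a medium with EGF, bFGF, an inhibitor of TGFβ signalling and 1 μM I-BET151, so both passages carried this compound. The last pair of groups, DMSO and I-BET151, were progenitors held for 7 days in the corresponding basal medium with solvent (DMSO) or with 1 μM I-BET151. The compound keeps BET bromodomain proteins, readers of acetylated histones, off chromatin. Batch 3 held 2 libraries of each. No label said whether 2 libraries of a group came from separate cultures, so the spread between them may be technical.

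Pioneer factors bind their DNA words in closed chromatin and let other transcription factors follow. GATA factors bind with zinc fingers and FOXA factors with a forkhead (winged helix) domain. GATA4 and GATA6 act in heart and endoderm, and loss of GATA6 function impairs formation of the human pancreas. GATA2 and GATA3 are best known from blood, trophoblast and other non-endodermal lineages. FOXA1 and FOXA2 act in foregut endoderm and pancreas, where they share targets such as PDX1, and FOXA3 is best known from liver. GATA6-AS1 is transcribed away from GATA6 on the other strand. LINC00261 is a long non-coding RNA encoded next to FOXA2.

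Levels are in TPM, each transcript's length-scaled share of its library, so different genes can be set side by side. TPM holds no read number, so the depth of the libraries is unknown. A library listed from 14982 to 17578 genes at 1 TPM or more. The listed TPM that went to ribosomal protein genes ranged between 9.995% in SC-β and 28.2% in the second DMSO library. Within the I-BET151 experiment this share went with the replicate number, at 20.6% (DMSO) and 17.0% (I-BET151) for replicate 1 and 28.2% and 28.0% for replicate 2. ePP-β replicate 2 stood apart in nuclear copies of mitochondrial genes, at 4.40% of the listed TPM against at most 0.974% elsewhere. The labelled cell types carried most of their markers, with exceptions. PTF1A, a marker of early pancreatic progenitors, was at 21.05 TPM in PP2 and at most 0.34 TPM in the ePP, DMSO and I-BET151 libraries, although PDX1 was at 74.4 TPM or more in all of them. The highest PTF1A level was that of SC-β, 61.0 TPM. PP2 held less NKX6-1 (23.5 TPM), a further progenitor marker, than any ePP, DMSO or I-BET151 library (51.5 to 446 TPM). CXCR4, a marker of DE, reached 147 and 226 TPM in ePP-β, above the 105 TPM of DE itself. SC-β and ePP-β held α-cell as well as β-cell hormone, with GCG at 74281 TPM beside INS at 20658 TPM in SC-β. Mesenchymal markers (10 genes such as COL1A1 and LUM) summed to 1533 TPM in PP2 and 2710 TPM in SC-β, with 9 of the 10 genes at 1 TPM or more in each. The same sum was 43.7 to 199.7 TPM in the ePP, ePP-β, DMSO and I-BET151 libraries. It was 569 TPM in hPSC, with THY1 at 342 TPM and COL1A1 at 195 TPM. Only 5 of the 10 genes reached 1 TPM in hPSC, where COL3A1 was at 0.011 TPM and LUM and DCN were listed at 0.

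GATA6 lies at chr18:22169589-22202528 on the plus strand and GATA6-AS1 at chr18:22164886-22169878 on the minus strand (GRCh38, GENCODE 44). Their gene bodies share 290 bases around the divergent starts. FOXA1 lies at chr14:37589552-37596059 and FOXA2 at chr20:22580998-22585455, both on the minus strand. The gene body of LINC00261 lies 2355 bases from that of FOXA2. GATA2 lies at chr3:128479427-128493201 (minus strand), GATA3 at chr10:8045378-8075198 and FOXA3 at chr19:45863989-45873797 (both plus strand). The strand setting of the authors' counting was not stated, so reads in bases that GATA6 and GATA6-AS1 share cannot be told apart. The same holds for GATA2 with GATA2-AS1 (3990 shared bases), GATA3 with GATA3-AS1 (3035 shared bases) and FOXA1 with TTC6 (431 shared bases).

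The 250 bases before the RefSeq starts of GATA6 and GATA6-AS1, 621 bases apart, are shown because the levels of both genes separate in the results (RefSeq, GRCh38.p14). Capitals mark the 180 bases before GATA6 that are also an annotated exon of GATA6-AS1 on the other strand. The GATA6-AS1 window lies inside its GENCODE gene body, which starts farther upstream than the RefSeq start.
GATA6, chr18:22169339-22169588, plus strand: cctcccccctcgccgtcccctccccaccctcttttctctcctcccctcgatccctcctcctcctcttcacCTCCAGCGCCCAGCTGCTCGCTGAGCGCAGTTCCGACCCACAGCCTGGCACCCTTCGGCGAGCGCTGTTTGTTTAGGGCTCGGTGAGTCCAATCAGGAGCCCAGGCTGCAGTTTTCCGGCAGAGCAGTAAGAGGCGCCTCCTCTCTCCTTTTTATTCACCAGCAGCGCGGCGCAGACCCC
GATA6-AS1, chr18:22168969-22169218, minus strand: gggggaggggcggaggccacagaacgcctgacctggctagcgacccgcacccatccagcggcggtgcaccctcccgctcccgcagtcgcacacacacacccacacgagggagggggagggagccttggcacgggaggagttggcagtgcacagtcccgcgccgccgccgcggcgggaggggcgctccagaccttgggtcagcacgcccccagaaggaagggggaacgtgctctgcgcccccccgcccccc

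The FOXA1 and LINC00261 windows are shown because each holds a forkhead word upstream of its RefSeq start. The FOXA1 window lies inside the GENCODE gene body given above, which starts farther upstream. It is cut to 151 bases and stops before an annotated FOXA1 exon. Words searched on both strands were the forkhead words TGTTTAC, further TATTTAC, further TGTTTGC, further TATTTGC, and the GATA words AGATAA, further AGATAG, further TGATAA, further TGATAG, and no word of one set holds a word of the other. Capitals mark the forkhead word, 235 bases before the FOXA1 RefSeq start and 237 bases before the LINC00261 RefSeq start, both read as the reverse complement.
FOXA1, chr14:37595349-37595499, minus strand: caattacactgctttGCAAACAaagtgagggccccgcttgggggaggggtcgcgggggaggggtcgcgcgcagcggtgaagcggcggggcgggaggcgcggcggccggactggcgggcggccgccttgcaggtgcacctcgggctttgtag
LINC00261, chr20:22578643-22578892, minus strand: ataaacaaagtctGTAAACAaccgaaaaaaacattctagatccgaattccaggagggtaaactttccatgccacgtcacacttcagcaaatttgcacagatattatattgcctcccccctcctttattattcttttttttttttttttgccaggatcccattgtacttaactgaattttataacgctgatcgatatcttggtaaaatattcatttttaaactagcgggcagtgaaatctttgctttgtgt

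Of the 8 members, 6 had windows of 300 bases in the RefSeq table, 12 windows in all. A forkhead word stood in 2 of them (FOXA1 and the first GATA3 start) and a GATA word in 0 of them. Over all 35116 windows of the table, 12.1% held a forkhead word and 25.0% a GATA word.

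GATA4 and GATA6, the endodermal GATA factors, were near the floor in hPSC and high from DE on. GATA4 was at 0.063 TPM in hPSC, 131 TPM in DE, 117 TPM in PP2 and 48.7 TPM in SC-β. Passage 9 ePPs held 116 and 114 TPM, passage 21 ePPs 117 and 136 TPM, and ePP-β 34.2 and 27.8 TPM. In batch 3 its DMSO values were 37.0 and 33.8 TPM and its I-BET151 values 117 and 58.0 TPM. GATA4 thus had 2 tiers, with DE, PP2 and both ePP passages between 114 and 136 TPM, SC-β, DMSO and ePP-β between 27.8 and 48.7 TPM, and the I-BET151 libraries spread between the tiers. The DMSO and ePP-β ranges overlapped, and DE, PP2 and ePP-P9 lay within or beside the ePP-P21 range.

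GATA6 was at 0.059 TPM in hPSC and peaked in DE, at 310 TPM. PP2 had 128 TPM, passage 9 ePPs 133 and 129 TPM, and passage 21 ePPs 135 and 154 TPM. It was at 53.6 TPM in SC-β, 35.0 and 31.3 TPM in ePP-β, 51.3 and 40.1 TPM in DMSO, and 116 and 67.6 TPM in I-BET151. DE stood alone at the top, and PP2 lay next to ePP-P9. GATA6 exceeded GATA4 in all but 1 of the 13 libraries other than hPSC. The GATA4 to GATA6 ratio was 0.42 in DE and between 0.72 and 1.01 in the other 12. Over the 14 libraries, GATA6 was the protein-coding gene most like GATA4 of 12048 compared (Pearson r = 0.99, Spearman rho = 0.93 on log2(TPM + 1)). Without the 2 libraries farthest from the GATA4 median, r was 0.94. These libraries share batches and groups, so the value is a description.

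GATA6-AS1 went its own way after DE. It was at 0.027 TPM in hPSC and 268 TPM in DE, then 8.39 TPM in PP2 and 5.40 TPM in SC-β. In ePPs it was at 19.8 and 18.3 TPM at passage 9 and at 88.8 and 80.4 TPM at passage 21. The ePP-β libraries differed from each other, at 4.28 and 17.4 TPM. DMSO was at 18.3 and 21.9 TPM and I-BET151 at 15.5 and 15.2 TPM. DE and ePP-P21 were clear of all other groups, while ePP-P9 and DMSO overlapped.

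**Figure D1:**
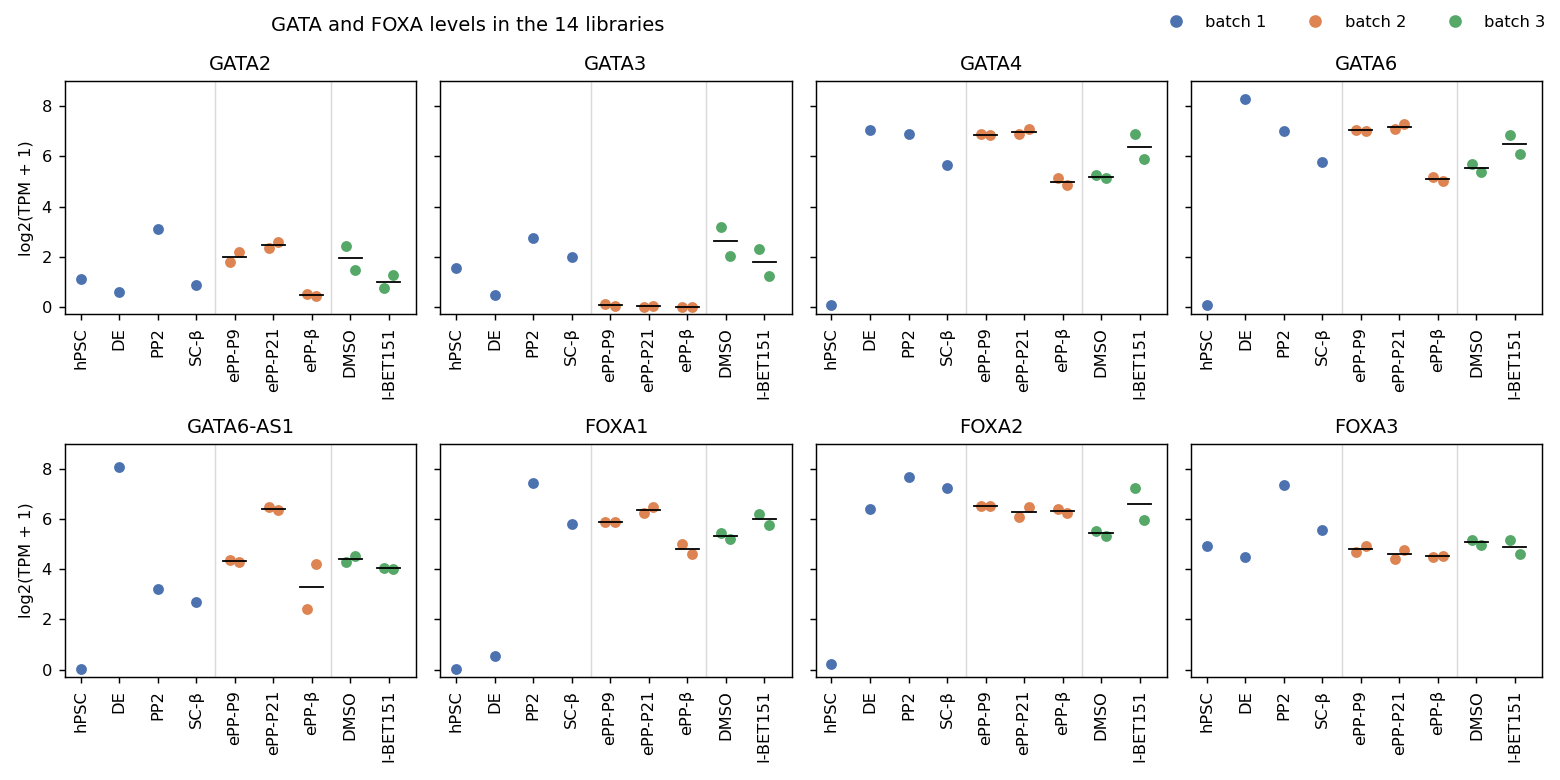
Level of each of the 8 genes as log2(TPM + 1) in the 14 libraries, with groups on the x axis, points for libraries, colours for the 3 batches and a line at the mean of each group of 2. GATA4 and GATA6 share 1 profile, GATA6-AS1 separates ePP-P9 from ePP-P21, and FOXA3 is the member at 29.8 TPM in hPSC.

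The FOXA genes started in turn. FOXA3 had the highest level of the 8 members in hPSC, at 29.8 TPM, where FOXA1 (0.026 TPM) and FOXA2 (0.15 TPM) were near the floor. FOXA2 was at 82.4 TPM in DE, where FOXA1 was still at 0.47 TPM. All 3 were high in PP2, with FOXA1 at 173 TPM, FOXA2 at 201 TPM and FOXA3 at 161 TPM. As shares of the FOXA sum, FOXA3 made up 99.4% in hPSC, FOXA2 79.2% in DE, and FOXA1, FOXA2 and FOXA3 32.3%, 37.6% and 30.1% in PP2. In bulk RNA, a lower level can mean fewer cells with the transcript or less transcript per cell, which cannot be told apart here.

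FOXA1 had 57.6 and 58.6 TPM at passage 9, 75.0 and 87.8 TPM at passage 21, 31.1 and 23.4 TPM in ePP-β and 54.8 TPM in SC-β. Its DMSO values were 43.0 and 35.6 TPM and its I-BET151 values 73.0 and 53.8 TPM. FOXA2 had 90.0 and 91.5 TPM at passage 9, 67.5 and 88.3 TPM at passage 21, 84.0 and 75.2 TPM in ePP-β and 150 TPM in SC-β. For FOXA2 the DMSO libraries were the lowest after hPSC, at 45.0 and 39.0 TPM, and the I-BET151 libraries spread from 60.6 to 150 TPM. The ePP-P21 and ePP-β ranges of FOXA2 overlapped. FOXA3 had 24.5 and 29.7 TPM at passage 9, 20.5 and 26.0 TPM at passage 21, 21.7 and 21.8 TPM in ePP-β, 35.0 and 30.4 TPM in DMSO, 35.3 and 23.6 TPM in I-BET151, 46.3 TPM in SC-β and 21.2 TPM in DE. Apart from PP2 and SC-β, the FOXA3 groups lay between 20.5 and 35.3 TPM with ranges that mostly overlapped.

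The FOXA make-up was not the same in each group. FOXA2 took 52.3% and 50.9% of the FOXA sum in ePP-P9, 41.4% and 43.7% in ePP-P21 and 61.4% and 62.5% in ePP-β. FOXA1 took 33.5% and 32.6% in ePP-P9 and 46.0% and 43.4% in ePP-P21. In ePP-P21 replicate 1 the FOXA1 share was above that of FOXA2, which was so in no other library. The FOXA1 and FOXA2 shares of ePP-P9 and ePP-P21 did not overlap, with an exact permutation p = 0.333 for each (two-sided), the smallest that 2 against 2 libraries can give. DMSO was nearly even, with 35.0% and 33.9% FOXA1, 36.6% and 37.2% FOXA2 and 28.4% and 28.9% FOXA3.

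**Figure D2:**
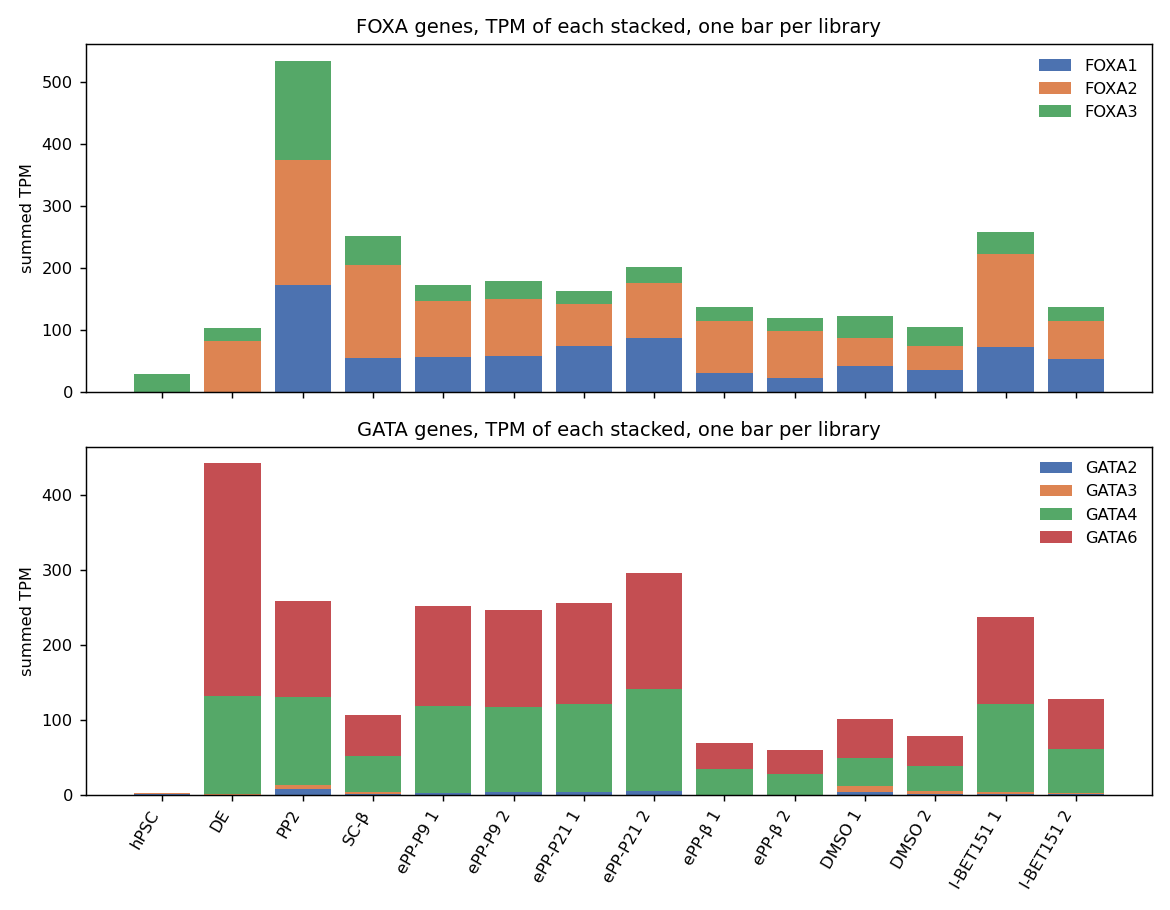
Stacked TPM of the FOXA genes (top) and of GATA2, GATA3, GATA4 and GATA6 (bottom), 1 bar per library, with colours for genes. The PP2 bar is the highest for FOXA (534 TPM) and the DE bar the highest for GATA (442 TPM), and GATA4 with GATA6 fills most of each GATA bar other than hPSC.

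GATA2 and GATA3, the members of other lineages, stayed low, and hPSC was the only library in which they made up most of the GATA sum (36.0% and 60.2% of 3.21 TPM). GATA2 was highest in PP2, at 7.72 TPM, then at 4.03 and 4.93 TPM in ePP-P21, 2.42 and 3.52 TPM in ePP-P9 and 4.34 and 1.74 TPM in DMSO. It was between 0.37 and 1.38 TPM in the remaining libraries. GATA3 was at 5.65 TPM in PP2, 8.19 and 3.06 TPM in DMSO, 3.91 and 1.38 TPM in I-BET151, 2.99 TPM in SC-β, 1.93 TPM in hPSC and 0.39 TPM in DE. In the 6 libraries of batch 2 it was at most 0.07 TPM and was listed at 0 in ePP-P21 replicate 1 and both ePP-β libraries. GATA2 and GATA3 thus parted in the ePPs. The trophoblast and amnion markers (10 genes of lineages in which GATA2 and GATA3 are also known) summed to 1098 TPM in PP2 and to between 12.3 and 244 TPM elsewhere. Most of the sum in the ePP and DMSO libraries was CDX2, which is also in the gut list. CDX2 was at 94.2 to 95.4 TPM in ePPs and at 104 and 237 TPM in DMSO. In ePP-β most of it was ISL1, at 158 TPM in both libraries. Of the 10 genes, 1 reached 1 TPM in each ePP library and 7 did in SC-β. In PP2, 5 of the 10 reached 1 TPM, namely CGA (901 TPM), HAND1 (136 TPM), CDX2 (55.5 TPM), ELF5 (2.55 TPM) and ISL1 (1.71 TPM), and the others, with TFAP2A at 0.022 TPM and TFAP2C at 0.29 TPM, did not. The endothelium and blood markers (8 genes) summed to 75.7 TPM in PP2 and to between 1.32 and 16.9 TPM elsewhere. The part of other cell types in the PP2 levels of GATA2 and GATA3 was not tested.

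The steps of directed differentiation were compared as differences of log2(TPM + 1) between single libraries, which have no replicate check and no test. From hPSC to DE, 5 of 7 members with 1 TPM in either library differed more than 2-fold, against 26.9% of all 17807 genes (10.8% higher and 16.1% lower). GATA4, GATA6, GATA6-AS1 and FOXA2 were higher in DE, by 6.95, 8.20, 8.03 and 6.18 log2 units, and GATA3 lower by 1.07, which was under 2-fold with median centring. From DE to PP2, 7 of 8 differed more than 2-fold, against 37% of 18578 genes (27.2% higher and 9.83% lower). FOXA1 was 6.88 log2 units higher in PP2 (0.47 to 173 TPM), FOXA3 2.87, GATA2 2.51, GATA3 2.26 and FOXA2 1.28. GATA6-AS1 was 31.9-fold lower in PP2 on the TPM scale and GATA6 was 2.43-fold lower. The median of all genes was 0.38 log2 units higher in PP2 and, after centring each library on its median, at -0.10. Genes higher in PP2 made up 73.5% of those past 2-fold and 44.9% after centring. With centring, FOXA2 was no longer past 2-fold. The mesenchymal sum was 58.7 TPM in DE and 1533 TPM in PP2, and its part was not tested.

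From PP2 to SC-β, 5 of 8 members were more than 2-fold lower and 0 were higher, against 34.8% of 18894 genes (12.7% higher and 22.1% lower). FOXA3 was 3.47-fold lower, FOXA1 3.15-fold, GATA4 2.41-fold, GATA6 2.38-fold and GATA2 9.05-fold. FOXA2 was the member of the endodermal set that differed least, at 201 and 150 TPM. With libraries centred on their medians, GATA4 and GATA6 fell short of 2-fold and 59.7% of genes past 2-fold were higher in SC-β, against 36.5% without centring. The mesenchymal sum stood at 1533 TPM in PP2 and 2710 TPM in SC-β beside these differences. Its genes were split, with COL1A1, COL1A2, COL3A1, PDGFRB and DCN higher in SC-β and PDGFRA, TWIST1, PRRX1, LUM and THY1 lower. The part of mesenchymal cells was not tested.

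The DMSO and I-BET151 libraries addressed how 7 days of BET inhibition changed pancreatic progenitors. No member passed both thresholds (adjusted p under 0.05 and more than 2-fold) in the limma fit on TPM. GATA4, FOXA2, GATA6 and FOXA1 had higher values in both I-BET151 libraries than in either DMSO library. The study used DESeq2, called many more genes in this comparison and named GATA4, GATA6 and FOXA2 among those up-regulated. Its test was not repeated, so the absence of calls belongs to the limma fit alone. GATA4 averaged 35.4 ± 2.26 TPM without and 87.5 ± 41.7 TPM with I-BET151 (SD, n = 2 each). FOXA2 was at 42.0 ± 4.24 and 105 ± 63.1 TPM, GATA6 at 45.7 ± 7.97 and 91.6 ± 34.0 TPM and FOXA1 at 39.3 ± 5.23 and 63.4 ± 13.5 TPM. Replicate 1 of I-BET151 was above replicate 2 for all 4 genes, and replicate 2 was nearer to DMSO.

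In the limma fit, 35 of 16687 genes (0.21%) passed both thresholds, 1 higher with I-BET151 (0.00599%) and 34 lower (0.204%). Of the 8 members, 0 passed and 1 (GATA4) had an unadjusted p under 0.05, which 2536 genes had. The log2 fold change of GATA4 was 1.20 (SE 0.43, 95% interval 0.10 to 2.29, adjusted p = 0.290). FOXA2 was at 1.17 (SE 0.50, adjusted p = 0.365), GATA6 at 0.95 (SE 0.39, adjusted p = 0.350) and FOXA1 at 0.67 (SE 0.33, adjusted p = 0.419). The 4 members without overlap on the higher side stand against 28.7% of all genes, so this pattern was common in these libraries. The lower side held 2 members without overlap, GATA2 (log2 fold change -0.94, adjusted p = 0.400) and GATA6-AS1 (-0.36, adjusted p = 0.636), against 18% of all genes. GATA3 was at -0.84 (adjusted p = 0.552) and FOXA3, with nearly the same mean in both groups, at -0.17 (adjusted p = 0.866). The median over the 8 members was 0.25 and over all tested genes 0.16.

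The number of members called was not 0 in each setting tried. In a fit of all 10 replicated libraries, GATA4 passed both thresholds (adjusted p = 0.0408), as did 8.72% of all genes, and without I-BET151 replicate 2 FOXA2 did (log2 fold change 1.81, adjusted p = 0.0467), as did 6.41% of all genes, in a fit that took the spread of the lone I-BET151 library to be that of DMSO.

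**Figure D3:**
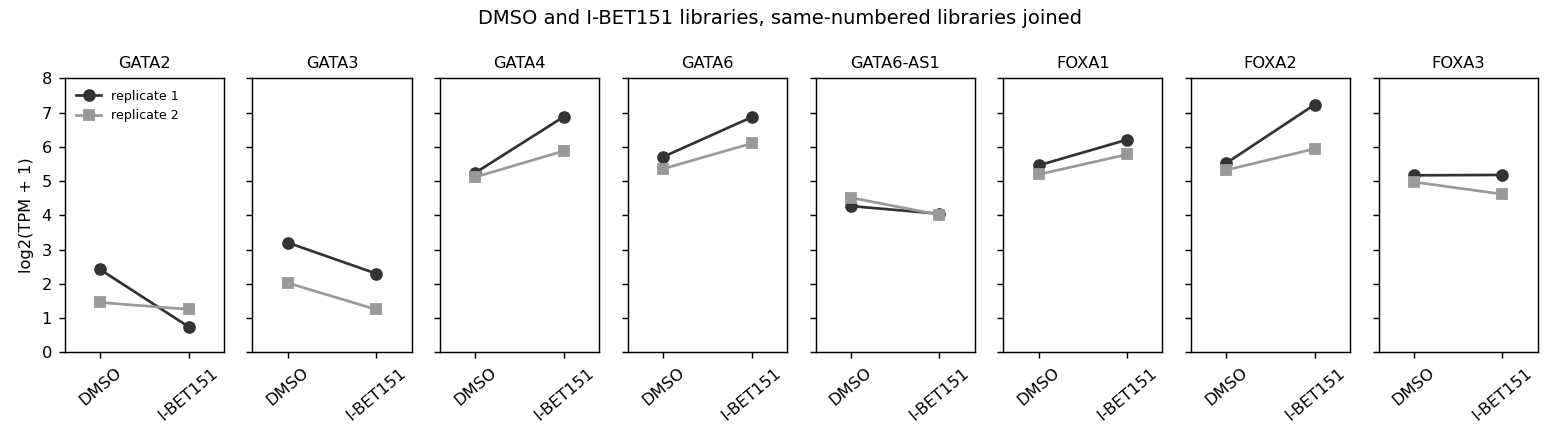
Level of each member as log2(TPM + 1) in the DMSO and I-BET151 libraries, with lines joining libraries of the same replicate number (what the number stands for was not given in the labels). GATA4, GATA6, FOXA1 and FOXA2 are higher with I-BET151 on both lines, FOXA3 is nearly level in replicate 1 and lower in replicate 2, and GATA2 is lower on both.

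Among the relatives, neighbours and partners of the members (11 genes), 0 of 8 tested passed, 2 had an unadjusted p under 0.05, and the median log2 fold change was 0.28. LINC00261, the neighbour of FOXA2, had 37.8 and 62.1 TPM without I-BET151 and 156 and 152 TPM with it (log2 fold change 1.65, SE 0.36, adjusted p = 0.139). Both I-BET151 values were more than 2 times the higher DMSO value. ZFPM1, a cofactor that binds GATA factors, had 38.0 and 9.78 TPM without I-BET151 and 81.0 and 12.7 TPM with it, a wider gap between replicates than between groups. GATA5, the third endodermal GATA gene, was named after its values were seen and was at 7.42 and 2.42 TPM in DMSO and 2.05 and 0.62 TPM in I-BET151 (adjusted p = 0.385).

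The transcription factors of foregut and pancreas (12 genes) included 0 that passed, 6 with an unadjusted p under 0.05 and 9 with a higher mean log2 level in I-BET151. Their median log2 fold change was 0.68 against 0.16 over all genes. NKX6-1, which marks progenitors that can form β-like cells, was at 103 and 51.5 TPM in DMSO and 446 and 208 TPM in I-BET151 (log2 fold change 2.05, adjusted p = 0.184). MNX1, a homeobox factor of pancreas and motor neurons, was at 73.4 and 69.7 TPM and at 256 and 117 TPM (1.26, adjusted p = 0.293).

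The liver genes known to depend on FOXA factors (8 genes) lay on the other side. All 8 had a lower mean log2 level in I-BET151, 7 without overlap, with a median log2 fold change of -2.60. TTR, the thyroxine carrier of liver and choroid plexus, fell from 1049 and 1220 TPM in DMSO to 55.6 and 60.7 TPM in I-BET151 (log2 fold change -4.26, SE 0.30, adjusted p = 0.0480) and was the 1 gene of the list to pass. AFP was at 5526 and 5198 TPM in DMSO and 617 and 1871 TPM in I-BET151 (-2.32, adjusted p = 0.175). APOA1 was at 3108 and 2030 TPM and at 307 and 380 TPM (-2.87, adjusted p = 0.0651). Markers of stomach and intestine (8 genes) summed to 926 and 514 TPM in DMSO and 194 and 130 TPM in I-BET151, and the mesenchymal sum was 199.7 and 90.4 TPM in DMSO and 83.1 and 43.7 TPM in I-BET151. In the gut list TFF1 and TFF2 passed both thresholds on the lower side and MUC5AC was at or near 0 in all 4 libraries. In the mesenchymal list PDGFRA and PDGFRB had a higher mean TPM with I-BET151 and the other genes a lower one. What part these other cell types had in the member values was not tested.

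The ePP passages addressed whether expandable progenitors kept their profile over long culture. GATA6-AS1 rose between passage 9 and passage 21 and was the 1 member that passed both thresholds. GATA6-AS1 averaged 19.1 ± 1.05 TPM at passage 9 and 84.6 ± 5.99 TPM at passage 21 (SD, n = 2 each), a 4.44-fold difference. Its log2 fold change was 2.09 (SE 0.11, 95% interval 1.83 to 2.36, adjusted p = 0.0201). Of 15822 genes tested, 178 (1.13%) passed, 169 higher in ePP-P21 (1.07%) and 9 lower (0.0569%). GATA6 was 1.11-fold higher on the TPM scale (log2 fold change 0.14, 95% interval -0.09 to 0.38, adjusted p = 0.410) and GATA4 1.10-fold (0.13, 95% interval -0.12 to 0.38, adjusted p = 0.490). GATA6 and GATA4 changed sign with libraries centred on their medians, at -0.060 and -0.075.

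FOXA1 averaged 58.1 ± 0.70 TPM at passage 9 and 81.4 ± 9.00 TPM at passage 21, a log2 fold change of 0.48 (95% interval 0.21 to 0.74, adjusted p = 0.0838). FOXA2 was at -0.23 (95% interval -0.58 to 0.12, adjusted p = 0.385), FOXA3 at -0.22 (adjusted p = 0.496) and GATA2 at 0.47 (adjusted p = 0.306). GATA3 did not reach the level for a test. The median over the 7 members tested was 0.14 and over all genes 0.13. Of the members tested, 5 were higher without overlap and 1 (FOXA2) lower, against 41.3% and 13.1% of all genes.

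The call for GATA6-AS1 was lost when either ePP-P21 library was left out (adjusted p = 0.0849 without replicate 1 and 0.104 without replicate 2), although the log2 fold change stayed at 2.02 and 2.16. It was also lost with no filter on low values (0.203), without the intensity trend (0.0740), with all 10 replicated libraries in 1 fit (0.351) and with libraries centred on their medians (1.89, adjusted p = 0.0510), where no gene passed both thresholds, 4176 had an unadjusted p under 0.05, and the median of all genes moved from 0.13 to -0.07.

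Among the relatives 0 of 7 tested passed between passages, and 1 had an unadjusted p under 0.05. LINC00261 had 413 and 416 TPM at passage 9 and 372 and 454 TPM at passage 21 (log2 fold change -0.01, SE 0.11, adjusted p = 0.967). TLE3, a Groucho-type corepressor of the family that FOXA factors recruit, was at 28.8 and 41.9 TPM and at 32.5 and 44.2 TPM. Of the 12 foregut factors, 0 passed and 5 had an unadjusted p under 0.05. These 5, named after their values were seen, were higher at passage 21 without overlap, with adjusted p between 0.0530 and 0.141. The mean of ONECUT1 was 12.4 TPM at passage 9 and 26.0 TPM at passage 21, that of HHEX 19.2 and 39.9 TPM, of RFX6 16.9 and 30.7 TPM, of ONECUT2 10.9 and 21.2 TPM and of PROX1 2.95 and 5.23 TPM. The most abundant factors of the list had overlapping ranges, with NKX6-1 at 209 and 193 TPM and SOX9 at 134 and 134 TPM in the mean. The median log2 fold change over the list was 0.07. FGB, a fibrinogen chain made in liver, rose from 2.20 and 1.72 TPM to 10.2 and 8.44 TPM (log2 fold change 1.80, adjusted p = 0.0371), the 1 of 6 liver genes tested that passed. AFP was at 84.9 and 96.1 TPM and at 105 and 113 TPM, and SERPINA1 at 85.1 and 103 TPM and at 91.6 and 97.4 TPM. The mesenchymal sum was 47.7 and 46.7 TPM at passage 9 and 72.3 and 49.4 TPM at passage 21, and its part was not tested.

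ePP-β against ePP addressed what changes when expanded progenitors are turned into β-like cells. The media that the study lists for this step hold no I-BET151, whereas ePPs were grown with it. Differentiation and removal of the compound thus change together here and cannot be told apart. GATA4, GATA6, GATA6-AS1, GATA2 and FOXA1 fell, and FOXA2 and FOXA3 did not pass the test. GATA4 went from 121 TPM in ePPs (mean of both passages) to 31.0 ± 4.52 TPM in ePP-β (SD, n = 2), a 3.89-fold difference. GATA6 went from 138 to 33.2 ± 2.58 TPM, 4.16-fold. Their log2 fold changes were -1.93 (SE 0.11, adjusted p = 5.09e-05) and -2.02 (SE 0.09, adjusted p = 1.98e-05), so both fell together and their ratio stayed between 0.86 and 0.98 in these 6 libraries.

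Of 18076 genes tested, 5020 (27.8%) passed both thresholds, 3237 higher (17.9%) and 1783 lower (9.86%). Higher genes were 64.5% of the calls, 55.2% with median centring and 47.5% with quantile normalization. Of the 7 members tested, 5 were called lower and 0 higher, and the same 5 did not overlap between ePP and ePP-β, against 31.6% of all genes without overlap on the lower and 32.2% on the higher side. FOXA1 went from 69.7 to 27.2 ± 5.45 TPM (log2 fold change -1.32, SE 0.13, adjusted p = 0.000417). GATA2 went from 3.73 to 0.40 ± 0.05 TPM (-1.72, SE 0.19, adjusted p = 0.000543). FOXA2 was at 84.3 TPM in ePPs and 79.6 ± 6.20 TPM in ePP-β, a log2 fold change of -0.07 with a 95% interval of -0.37 to 0.22 (adjusted p = 0.626). FOXA3 was at -0.19, with an interval of -0.52 to 0.15 (adjusted p = 0.281). The interval of FOXA2 thus did not reach a 2-fold difference, whereas that of FOXA1 was -1.64 to -0.99. Both intervals reflect only the spread between these libraries, which may be technical, so they do not bound differences between separate cultures. The median over the members tested was -1.72 and over all genes -0.03.

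GATA6-AS1 had a log2 fold change of -2.07 (SE 0.46, adjusted p = 0.0104), but this rested on ePP-β libraries of 4.28 and 17.4 TPM and on a reference that pooled 2 passages with means of 19.1 and 84.6 TPM. The second ePP-β library lay next to the ePP-P9 libraries (18.3 and 19.8 TPM), and both ePP-β libraries lay far below ePP-P21. ePP-β was not tested against each passage alone. It was -2.97 without ePP-β replicate 2 and -1.17 without replicate 1, and the call was lost with no filter on low values (adjusted p = 0.0685). ePP-β replicate 2, the library with more mitochondrial copies, was the one with more GATA6-AS1. The other 4 calls held without either ePP-β library, and the count of members called stayed at 5 without each of the 6 libraries in turn.

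**Figure D4:**
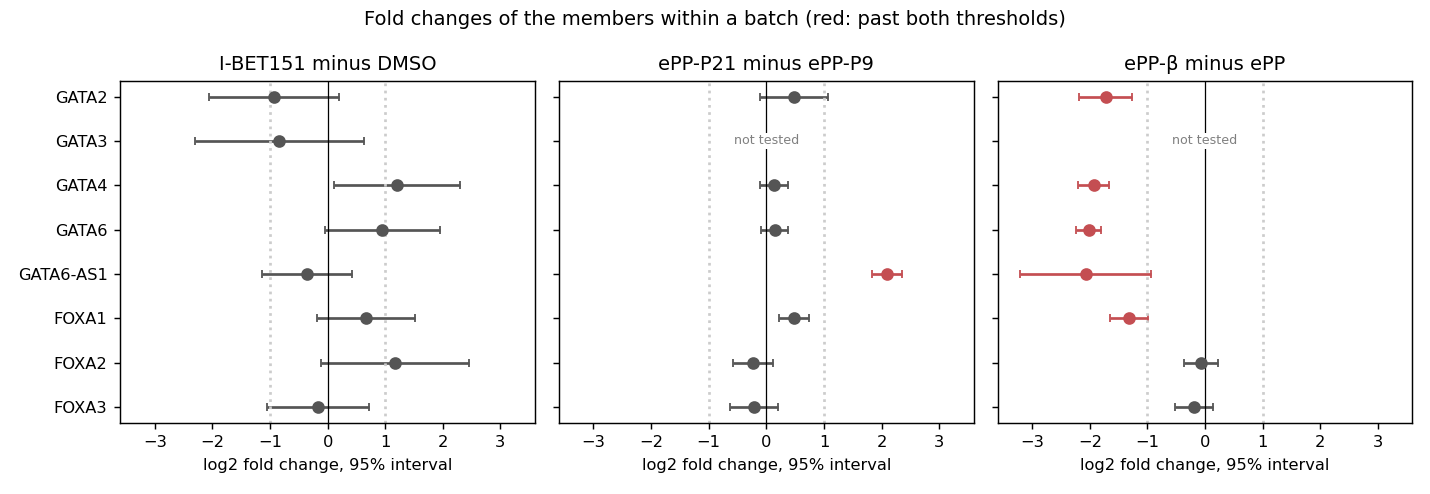
Log2 fold changes on the log2(TPM + 1) scale with 95% intervals for the 8 members in the 3 comparisons made within a batch, with red for members past both thresholds and dotted lines at 2-fold. In ePP-β against ePP, 5 members lie left of the line and FOXA2 and FOXA3 sit near 0, and in ePP-P21 against ePP-P9 GATA6-AS1 alone is red.

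Among the relatives, 1 was called higher and 2 lower of 7 tested in ePP-β. TLE2, a corepressor of the Groucho type, rose from 2.75 TPM in ePPs to 8.75 and 9.51 TPM (log2 fold change 1.46, adjusted p = 0.00182). ZFPM1, the GATA cofactor, fell from 34.1 TPM to 13.0 and 11.7 TPM (-1.39, adjusted p = 7.95e-05). GATA2-AS1, which overlaps GATA2, fell from 1.86 TPM to 0.47 and 0.21 TPM (-1.03, adjusted p = 0.0163). LINC00261 was at 255 and 229 TPM in ePP-β against 414 TPM in ePPs (-0.77, adjusted p = 0.00107), past the p threshold and short of 2-fold, and FOXA2 next to it was at -0.07.

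Of the 12 foregut and pancreas factors, 3 were called higher and 5 lower. RFX6, a factor of islet endocrine cells, rose from 23.8 to 146 and 146 TPM (log2 fold change 2.63), and PROX1 rose by 2.09 log2 units. PDX1, which FOXA factors activate in pancreas, went from 130 TPM to 53.8 and 54.6 TPM (-1.25, adjusted p = 3.82e-05). SOX9, a progenitor and duct factor, had a log2 fold change of -1.22, ONECUT1 of -2.91 and HHEX of -1.43, each past both thresholds. NKX6-1 was at 143 and 138 TPM against 201 TPM, short of 2-fold. The median over the list was -0.65.

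All 7 liver genes tested were called higher in ePP-β, with a median log2 fold change of 4.22. TTR, which islet cells also make, rose from 16.6 TPM to 13015 and 15556 TPM, and SERPINA1 from 94.2 TPM to 1860 and 1802 TPM. ALB rose by 5.04 log2 units, AFP by 2.93, APOA1 by 3.86, APOB by 3.45 and FGB by 4.22. β-cell markers (4 genes) summed to at most 1.69 TPM in ePPs and to 11698 and 18073 TPM in ePP-β. When ribosomal protein genes and mitochondrial copies were left out of the scale, the same 5 members were called.

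The groups of batches 2 and 3 were also set beside PP2 and SC-β of batch 1. Culture and batch change together there and cannot be told apart, so these are values without a test. ePP against PP2 showed close values of GATA4 (121 and 117 TPM) and GATA6 (138 and 128 TPM) beside lower FOXA genes. FOXA1 was 2.48-fold lower in ePPs, FOXA2 2.38-fold and FOXA3 6.39-fold. GATA3 was at a mean of 0.031 TPM in ePPs against 5.65 TPM in PP2, and GATA6-AS1 was 6.18-fold higher. In all, 5 of 8 members were past 2-fold, against 35.3% of 18121 genes (8.44% higher and 26.9% lower), and 3 with libraries centred on their medians. FOXA1 and FOXA2 were the 2 that fell short then. Genes higher in ePPs made up 23.9% of those past 2-fold and 48.1% after centring. Markers of other cell types moved with this contrast. The mesenchymal sum was 1533 TPM in PP2 and 46.7 to 72.3 TPM in ePPs, CGA was at 901 TPM against at most 0.24 TPM, and HAND1 was at 136 TPM and listed at 0 in all 4 ePP libraries. Their part in the member values was not tested.

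DMSO progenitors against PP2 had 7 of 8 members past 2-fold, against 39.5% of 18504 genes (10.3% higher and 29.2% lower). FOXA3, FOXA2 and FOXA1 were 4.92-fold, 4.78-fold and 4.39-fold lower than in PP2, GATA4 3.32-fold and GATA6 2.79-fold, and GATA6-AS1 was 2.39-fold higher. The median of all genes was 0.51 log2 units lower and, after centring, 0.02 lower, and GATA6 and GATA2 then fell short of 2-fold. Genes higher in DMSO were 26.1% of those past 2-fold, and 55.2% with centring. The mesenchymal sum was 199.7 and 90.4 TPM in DMSO beside 1533 TPM in PP2, CGA was at most 0.11 TPM beside 901 TPM and HAND1 at most 0.90 TPM beside 136 TPM, and their part was not tested.

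ePP-β and SC-β, the β-like cells of both routes, had 2 of 7 members past 2-fold, against 37% of 18931 genes (19% higher and 17.9% lower). FOXA3 was at 21.8 TPM in ePP-β and 46.3 TPM in SC-β, and GATA3 was listed at 0 in both ePP-β libraries and was at 2.99 TPM in SC-β. FOXA1 was 2.01-fold lower in ePP-β on the TPM scale, FOXA2 1.88-fold, GATA6 1.62-fold and GATA4 1.57-fold. Without ePP-β replicate 1 the count was 4, with FOXA1 and GATA6-AS1 added, and with median centring it was also 4, with FOXA1 and FOXA2 added. The mesenchymal sum was 56.5 and 43.9 TPM in ePP-β beside 2710 TPM in SC-β, and its part was not tested. GATA5 (chosen after its values were seen) was at 15.7 TPM in SC-β and 31.1 TPM in PP2, and at most 0.86 TPM in the 6 libraries of batch 2.

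The non-coding neighbours did not keep a fixed proportion to their coding partners. GATA6-AS1 was 86.2% of the GATA6 level in DE and 6.58% in PP2. It was 14.9% and 14.3% in ePP-P9 and 65.6% and 52.0% in ePP-P21, where GATA6-AS1 passed the test between passages and GATA6 did not. It was 35.6% and 54.6% in DMSO and 13.4% and 22.4% in I-BET151, where GATA6 had the higher and GATA6-AS1 the lower values. In ePP-β it was 12.2% and 55.6%. Groups did not overlap in the passage and the I-BET151 comparison (exact permutation p = 0.333 each, two-sided, the smallest possible with 2 against 2 libraries). The windows printed above show that the annotated GATA6-AS1 exon reaches into the bases just before the GATA6 start, and reads in the 290 bases that both gene bodies share cannot be assigned to either.

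LINC00261 was listed at 0 in hPSC and reached its high levels after FOXA2 did. In DE it was 0.17 times the FOXA2 level (13.6 and 82.4 TPM), in PP2 1.16 times and in SC-β 1.54 times. The ratio was 4.54 to 5.51 in the 4 ePP libraries and 3.04 and 3.05 in ePP-β, which did not overlap (exact permutation p = 0.133, two-sided, 2 against 4 libraries). It was 0.84 and 1.59 in DMSO and 1.04 and 2.51 in I-BET151, which overlapped. LINC00261 thus exceeded FOXA2 most in the ePPs, where FOXA2 was at 67.5 to 91.5 TPM.

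**Figure D5:**
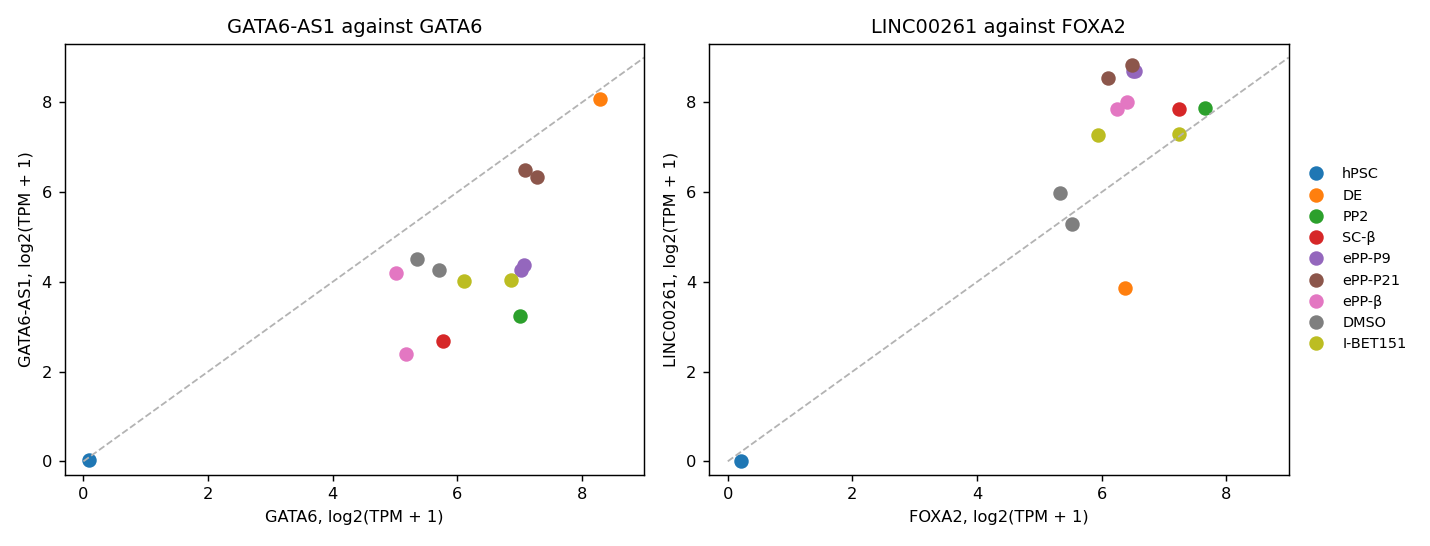
GATA6-AS1 against GATA6 (left) and LINC00261 against FOXA2 (right), all as log2(TPM + 1), with 1 point per library, colours for groups and a dashed line of equal level. ePP-P21 lies above ePP-P9 at the same GATA6 level, and LINC00261 is above the line in all ePP libraries and far below it in DE.

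The genes with the most similar profiles over the 14 libraries were named by Pearson's r on log2(TPM + 1), over 12048 protein-coding genes with at least 10 TPM in a library, as a description. FOXA1 was most like PDX1 (r = 0.98), MEIS2 (0.95) and SOX9 (0.95), 3 transcription factors that, like FOXA1, were under 1 TPM in hPSC and DE. FOXA2 was most like EIPR1 (0.93), CCDC92 (0.92) and a gene listed as ENSG00000288520 (0.91). CCDC92 was also among the 3 nearest to GATA4 (0.95) and GATA6 (0.92), with FAM89A (0.93 and 0.96). FOXA3 was most like RBBP8NL (0.96), MMRN2 (0.95) and SIX2 (0.94), genes that were highest in PP2. GATA6-AS1 was most like ELOVL2 (0.90), NTN4 (0.85) and ACOX3 (0.84), all highest in DE. GATA3 was most like MAZ (0.96), SHROOM1 (0.92) and RNF5 (0.92), and GATA2 like TAC3 (0.89) and SETDB1 (0.85). By rank some of these pairs were less alike. Spearman rho was 0.60 for FOXA2 with EIPR1, 0.56 for FOXA3 with MMRN2, 0.66 for FOXA3 with SIX2 and 0.60 for GATA6-AS1 with NTN4. Others kept a high rho, such as 0.96 for GATA3 with MAZ and 0.86 for FOXA1 with PDX1.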

How the data were processed

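Total RNA of 14 libraries was sequenced as paired ends. The authors aligned reads to GRCh38 with HISAT2 2.1.0, assembled transcripts with StringTie and deposited TPM values per gene identifier. Which gene annotation was used, and whether counting used strand, is not given in the sources used here. The authors' DESeq2 tests need counts and were not repeated. Depth is unknown, so no counting interval is given. The 37 mitochondrially encoded genes stood at 0 throughout, so a 0 may be a value that was not estimated. Of 60624 identifiers, 60370 matched GENCODE 44.

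Groups came from sample titles. Genes with at least 1 TPM in 2 libraries of a fit were tested as log2(TPM + 1) with limma 3.58.1 (R 4.3.3, intensity trend, two-sided) within a batch. Fold changes on this scale understate those of low genes. A gene was called at a Benjamini-Hochberg adjusted p under 0.05 over all tested genes and a log2 fold change above 1 or below -1, the thresholds of the study. For ePP-β, the reference was the mean of both ePP passages. Pairs of groups with single libraries or in different batches were set side by side without a test, counting genes that reached 1 TPM in the mean of either group. Code was tested on simulated data.

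The members and gene lists were chosen with earlier results of these data known. Members were always named. A list gene was named when it passed both thresholds or was among the 2 highest of its list in that comparison. The 3 most similar protein-coding genes per member were also named. A few genes that these rules select are counted but not reported here by name. Alternatives were pseudocounts of 0.1 and 0.01, other filters, a replicate block, other scalings, all 10 replicated libraries, adjusted p alone, no trend and leaving out each library. Python 3.11.15 with scipy 1.17.1 was used. Promoter windows came from RefSeq (GRCh38.p14).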

Additional observations from a re-analysis of the deposited data

Results flagged for a closer look

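The 8 members were checked in the 4 ePP libraries, the only set of 4 or more, for a library far from the others (Dixon's test, which flags about 1 in 20 groups by chance). GATA4 was highest in ePP-P21 replicate 2, at 136 TPM, with the other 3 libraries between 114 and 117 TPM. FOXA2 was lowest in ePP-P21 replicate 1, at 67.5 TPM, with the others between 88.3 and 91.5 TPM.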

How the results depend on the processing

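Of 431 values recomputed under alternatives, 400 were classed as the same. For a single gene this meant the same direction and side of the threshold. For a count of members it meant a count near the main one, not always with the same members. With the replicate block (r = 0.68 across genes between the DMSO and I-BET151 differences of replicate 2 minus replicate 1, and between -0.01 and 0.04 in batch 2), members called for I-BET151 against DMSO went from 0 to 2 (GATA4, adjusted p = 0.0323, and FOXA2, adjusted p = 0.0460) as all calls went from 35 (0.21%) to 2294 (13.7%). The labels do not say what the number marks. For ePP-P21 against ePP-P9 the block gave 66 calls in place of 178, GATA6-AS1 included, and for ePP-β the same 5 members. For I-BET151, 1 member was called with all 10 replicated libraries, and leaving out 1 library gave 0 to 1. For I-BET151 all calls were 120 with median centring, 138 with quantile normalization, 77 rescaled without ribosomal genes, 1673 with all 10 libraries, 0 with no filter or with either smaller pseudocount, and 107 to 1034 without 1 library. For ePP-P21 the 1 call went to 0 with no filter, median centring, all 10 libraries or no intensity trend, and 0 to 1 without 1 library. All calls there were 0, 0, 1 and 1 in these 4 settings, 13 with quantile normalization, 309 on adjusted p alone and 0 to 478 without 1 library. For ePP-β, all calls on adjusted p alone were 10381. Between passages, GATA4 (log2 fold change -0.075) and GATA6 (log2 fold change -0.060) reversed with median centring. FOXA3 under I-BET151 reversed without I-BET151 replicate 2 (leaving out 1 library gave -0.45 to 0.11). FOXA2 in ePP-β against ePP reversed without ePP-P21 replicate 2 or ePP-β replicate 2 (leaving out 1 library gave -0.17 to 0.022, and 0.0045 for the latter). Members past 2-fold were 3 in place of 5 for SC-β against PP2 (median centring, quantile) and for ePP against PP2 (median centring). For ePP-β against SC-β the 2 became 4 with median centring, 1 rescaled, and 2 to 4 without 1 library. Except where shown by fewer samples or genes, the cause was not tested. Values under 1 TPM and groups of 2 libraries limit what can be seen.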
